A study of Homo sapiens with 8 samples.

Results

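FDCSP, PLAC8, CAMP and LCN2 are 4 human genes best known from leukocytes, lymphoid follicles and epithelia, and they were read here in a melanoma line. They were chosen by their array signals and detection calls in CD10-A375 against mock-A375 cells, the same values that are described here, so their difference is given as a description, with no test. They are 4 of 11303 genes with a tested probe, and every probe that the platform annotation assigns to them was kept, 5 of 19550 tested probes (1 each for FDCSP, CAMP and LCN2 and 2 for PLAC8). All 5 probes passed the filter on dim probes, CAMP and LCN2 only through the CD10-A375 arrays, where they were bright.

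The study asked what CD10, the cell-surface metalloendopeptidase neprilysin encoded by MME, does in A375 cells, an established human melanoma line. CD10-A375 cells carried an expression plasmid with the human CD10 reading frame, stably selected with G418 and sorted for CD10 on their surface. The mock-A375 cells carried the empty plasmid. Each group had 4 bead arrays labelled as biological replicates, and 1 transfected population per group is described. The spread measured here is therefore that between samples of the same population, and whether they were separate cultures is not stated. An effect of CD10 and a difference between the 2 populations cannot be told apart. The cells were read in bulk, so fewer expressing cells and less RNA per cell cannot be told apart either. The 4 MME probes did not check the labels, because none was detected on any array (lowest detection p 0.114). The plasmid carried the reading frame alone, and whether these probes read it was not tested.

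FDCSP encodes a small secreted peptide of follicular dendritic cells and of the epithelium at the gum margin, and its gene lies beside the casein and salivary peptide genes on chromosome 4. PLAC8, also called onzin, encodes a small cysteine-rich protein of myeloid and plasma cells that is usually described as intracellular, so the word secreted does not cover it. CAMP encodes the precursor of the only human cathelicidin, an antimicrobial peptide stored in neutrophil specific granules and released by proteases such as proteinase 3, and in human cells the gene is a known target of the vitamin D receptor. LCN2 encodes neutrophil gelatinase-associated lipocalin, which shares those granules, binds the siderophores with which bacteria take up iron, and is known for its induction by NF-kB in inflamed epithelium.

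All 5 probes were brighter on every CD10-A375 array than on any mock-A375 array, while 16.7% of all tested probes were higher without overlap (17.9% lower). By the limma fit 36.6% of tested probes passed an adjusted p of 0.05, 17.3% higher and 19.3% lower in CD10-A375 cells. FDCSP ranked 2 and the PLAC8 probes 18 and 12 among the 19550 probes by log2 difference, and no rank is given for CAMP and LCN2, which were not detected in mock-A375 cells. For comparison, 0.721% of all tested probes had a log2 difference of 2 or more. The median over all tested probes was -0.02. Signals are given as deposited, background-subtracted but not normalized, in arbitrary units, and log2 values after background correction and quantile normalization with an offset of 16. A probe counts as detected where the detection p from the negative control beads is 0.01 or less.

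**Figure D1:**
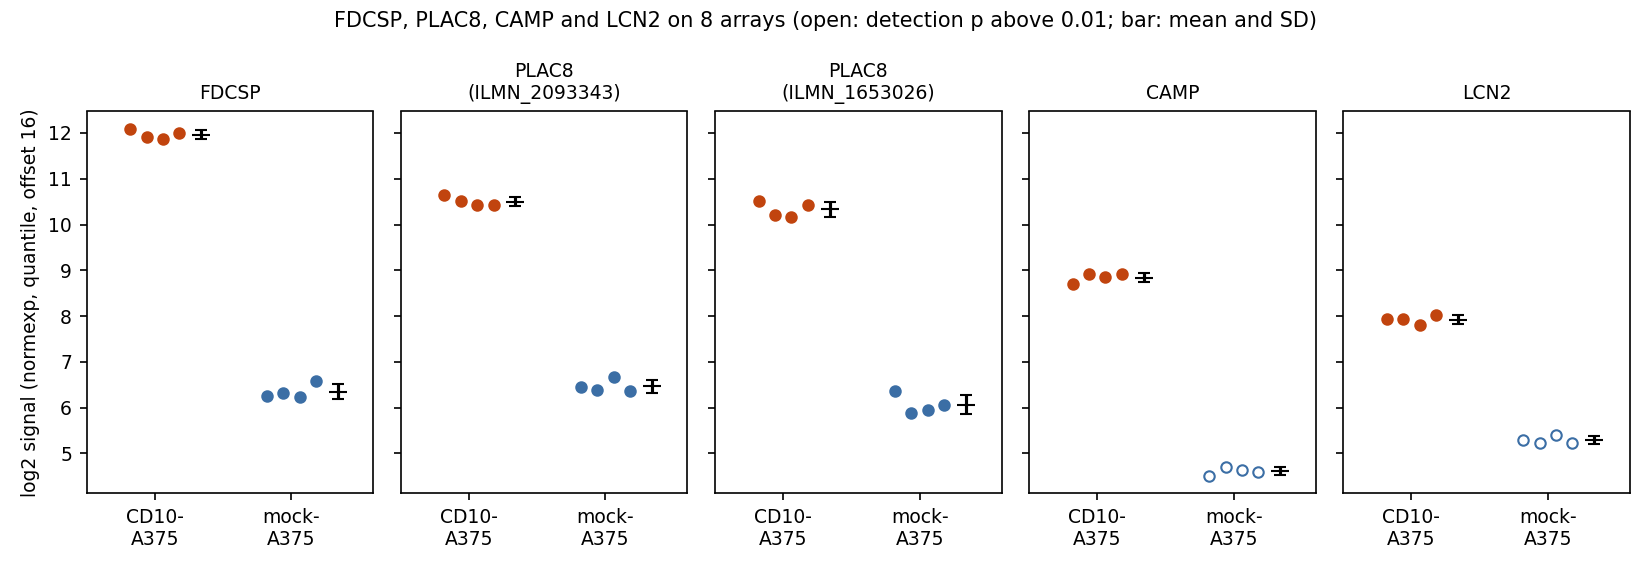
Log2 signal of the 5 probes (vertical axis, after normexp correction, quantile normalization and an offset of 16) on the 4 CD10-A375 arrays and the 4 mock-A375 arrays. Filled points were detected and open points were not, and the black bars are means with SD. The mock-A375 points are open in the CAMP and LCN2 panels alone, and the closest pair of groups is that of LCN2, 2.39 apart on the log2 scale.

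The FDCSP probe (gene ID 260436, formerly C4orf7) gave 4178, 4314, 3475 and 3887 on the CD10-A375 arrays, against 61.6, 62.8, 60.6 and 81.5 on the mock-A375 arrays. The mock-A375 values were low but detected on all 4 arrays, and the groups lay 5.28 apart on the log2 scale between the lowest CD10-A375 and the highest mock-A375 value. The mean log2 signal was 11.96 ± 0.10 in CD10-A375 cells and 6.35 ± 0.16 in mock-A375 cells (SD, n = 4 each), a log2 difference of 5.62. On the average-normalized scale, which divides each array by its overall brightness, the means were 3914 ± 260 in CD10-A375 cells and 64.9 ± 10.2 in mock-A375 cells (SD, n = 4 each), a ratio of 60.3.

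PLAC8 (gene ID 51316) was read by 2 probes, ILMN_2093343 and ILMN_1653026. The first gave 1518, 1599, 1258 and 1269 on the CD10-A375 arrays, against 73.0, 65.7, 88.2 and 67.7 on the mock-A375 arrays. The second gave 1376, 1303, 1056 and 1270 on the CD10-A375 arrays, against 68.2, 41.99, 47.2 and 51.1 on the mock-A375 arrays. Both probes therefore detected PLAC8 on all 8 arrays, low in mock-A375 cells, with no overlap between the groups. Their log2 differences were 4.04 and 4.27, and the ratios of the average-normalized means were 19.5 and 24.4. The 2 probes are separate readings of the same RNA and not replicates. Once the group means were removed, their deviations over the 8 arrays had a correlation of 0.15.

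The RefSeq promoter table (GRCh38.p14, 250 bases before and 50 after the start) held PLAC8, CAMP and LCN2, 3 of the 4 genes, and 2 starts for PLAC8. It was searched on both strands for the TATA box (TATAAA), the CCAAT box (CCAAT) and motifs of C/EBP (TTGCNNAA), NF-kB (GGG, any 4 bases and TCC), PU.1 (GAGGAAGT), AP-1 (TGANTCA) and the E-box of MITF (CATGTG). Of 35116 promoters of that length, 11.5% held the TATA motif, 34.6% the CCAAT box, 10.5% the C/EBP motif, 22.6% the NF-kB motif, 2.59% the PU.1 motif, 7.71% the AP-1 motif and 11.1% the E-box. A match describes letters and not a bound site. The upstream PLAC8 promoter is shown because the gene has 2 starts of unlike base composition. It lies at chr4:83114680-83114979 on the minus strand, has 39% GC and 5 CpG, and holds CCAAT boxes 246 and 82 bases before the start and a C/EBP match on the opposite strand 155 bases before it, all in capitals.
PLAC8, upstream promoter: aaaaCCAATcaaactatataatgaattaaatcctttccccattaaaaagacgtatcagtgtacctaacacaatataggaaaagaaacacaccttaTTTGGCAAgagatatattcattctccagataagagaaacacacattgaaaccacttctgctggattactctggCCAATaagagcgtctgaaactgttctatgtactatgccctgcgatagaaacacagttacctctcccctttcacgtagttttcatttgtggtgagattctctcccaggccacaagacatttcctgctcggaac
The downstream PLAC8 promoter (chr4:83109840-83110139, minus strand) has 70.7% GC and 31 CpG, against a median of 14 CpG over all promoters, and held none of the 7 motifs. The arrays do not show which start was used.

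CAMP (gene ID 820) and LCN2 were detected on every one of the 4 CD10-A375 arrays and stayed under the limit on every mock-A375 array, while 1.26% of all tested probes had that pattern. The CAMP probe gave 382, 521, 415 and 435 on the CD10-A375 arrays, against -14.1, -0.768, -5.01 and -6.76 on the mock-A375 arrays, all below the array's background. The detection p on the mock-A375 arrays ran from 0.513 to 0.860. The mean log2 signal was 8.84 ± 0.10 in CD10-A375 cells and 4.62 ± 0.08 in mock-A375 cells (SD, n = 4 each), and the difference of 4.22 depends on how values under background are treated. Set against the lowest signal detected on each mock-A375 array, CAMP in CD10-A375 cells was higher by at least 8.65-fold. Such bounds take the higher of that lowest signal and the probe's own on each array, as means of normalized log2 values.

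The LCN2 probe (gene ID 3934) gave 220, 253, 195 and 226 on the CD10-A375 arrays, against 22.4, 19.4, 26.6 and 21.1 on the mock-A375 arrays. The mock-A375 values were all above 0, unlike those of CAMP, but each was below the lowest detected signal of its array, 33.2 to 40.7, with a detection p of 0.0364 to 0.0675. The mean log2 signal was 7.92 ± 0.09 in CD10-A375 cells and 5.29 ± 0.08 in mock-A375 cells (SD, n = 4 each), a difference of 2.63, and the bound for LCN2 came to at least 4.57-fold higher.

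**Figure D2:**
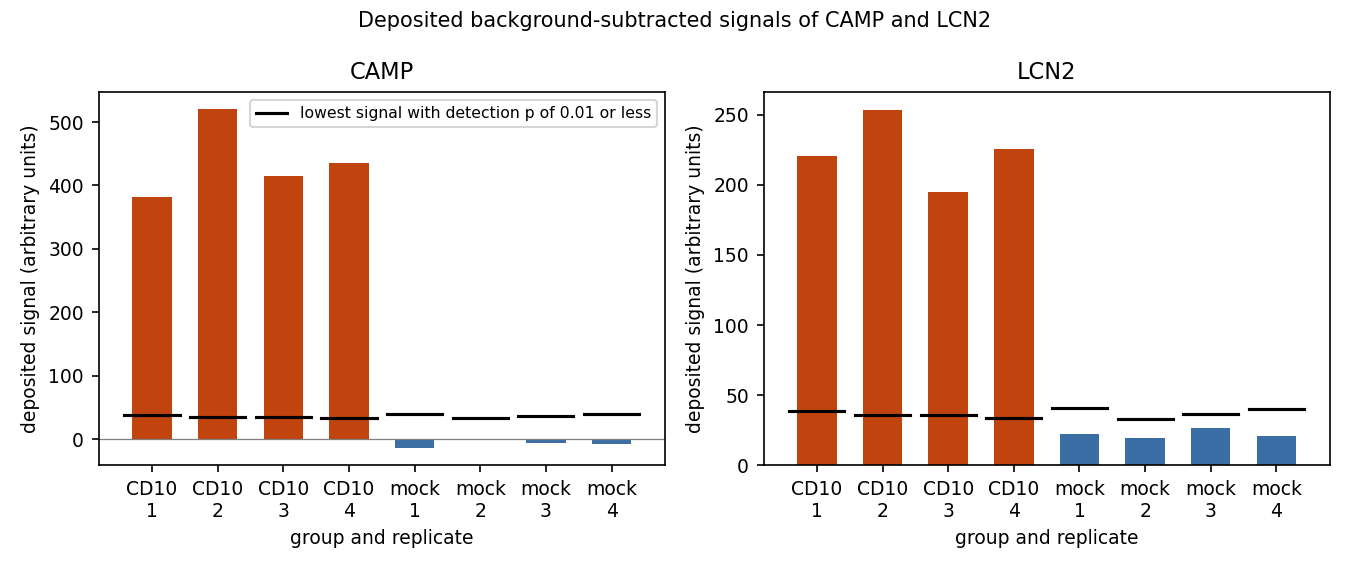
Deposited signal (vertical axis, arbitrary units) of CAMP and LCN2 on each array, with the 4 CD10-A375 replicates left of the 4 mock-A375 replicates. The black line over each bar is the lowest signal that counted as detected there. All CD10-A375 bars pass their line, the mock-A375 bars of LCN2 stop at 19.4 to 26.6 below it, and those of CAMP are at or under 0.

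The CAMP and LCN2 promoters are shown because the factors that the granule genes are known for are measured further on. The CAMP window (chr3:48223245-48223544, plus strand) has 58.3% GC and 1 CpG and holds a PU.1 match on the opposite strand 195 bases before the start. The LCN2 window (chr9:128149203-128149502, plus strand) has 57.3% GC and 6 CpG. It holds an NF-kB match 176 bases before the start that overlaps a second on the opposite strand at 175, a C/EBP match at 143 that overlaps a CCAAT box at 139, and an AP-1 match at 52. The matches are in capitals.
CAMP, promoter: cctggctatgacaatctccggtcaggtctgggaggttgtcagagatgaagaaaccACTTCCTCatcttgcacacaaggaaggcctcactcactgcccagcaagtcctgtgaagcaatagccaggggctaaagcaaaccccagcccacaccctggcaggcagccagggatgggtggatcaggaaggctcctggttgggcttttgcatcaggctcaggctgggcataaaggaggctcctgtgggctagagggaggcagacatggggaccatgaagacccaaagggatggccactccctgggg
LCN2, promoter: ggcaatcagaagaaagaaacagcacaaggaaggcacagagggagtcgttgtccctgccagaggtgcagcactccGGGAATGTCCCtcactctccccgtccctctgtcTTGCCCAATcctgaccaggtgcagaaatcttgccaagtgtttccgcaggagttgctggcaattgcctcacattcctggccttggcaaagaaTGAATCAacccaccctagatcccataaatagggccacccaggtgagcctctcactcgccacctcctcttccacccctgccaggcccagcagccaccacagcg

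**Figure D3:**
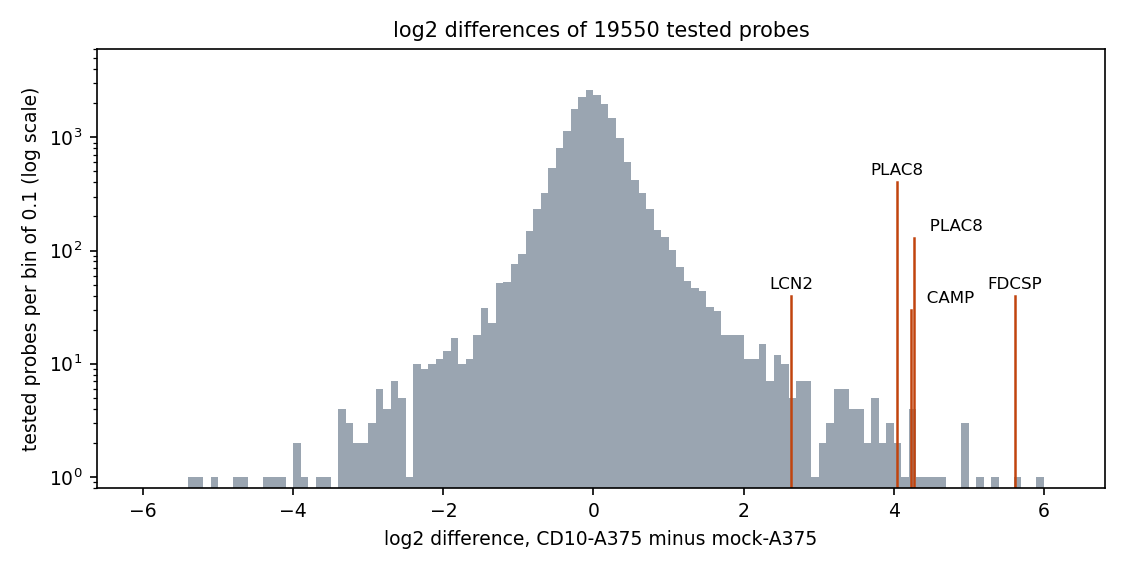
Number of tested probes (vertical axis, log scale) by log2 difference, CD10-A375 minus mock-A375 (horizontal axis, bins of 0.1), with lines at the 5 member probes, whose heights carry no meaning. The PLAC8 probes lie at 4.04 and 4.27 and FDCSP at 5.62, while the places of CAMP and LCN2 depend on the treatment of background.

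The pattern that the members shared over the arrays was that of the groups. Over the 8 arrays the 10 pairs of member probes had correlations between 0.994 and 0.999, which the 2 groups set. With the group means removed the correlations ran from -0.77, between CAMP and the PLAC8 probe ILMN_1653026, to 0.58, between LCN2 and the PLAC8 probe ILMN_2093343, and these values include mock-A375 arrays on which CAMP and LCN2 were not detected. The spread among CD10-A375 replicates was small, with coefficients of variation of 9.37% to 13.5% in deposited signal and 6.22% to 10.985% after average normalization.

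The genes whose pattern over the 8 arrays was most like each member were found by Pearson correlation of log2 signals among 10157 genes, as a description. FGFBP2, PDK4, RIPOR2, BMP2 and GAGE2A came closest to FDCSP (0.9997 to 0.9992). GAGE12E, AMACR, GAGE12B, NTRK3 and CTSK came closest to PLAC8 (0.9996 to 0.9989). TMEM158, AKR1C3, GBP2, GAGE2A and AKR1C2 came closest to CAMP (0.9997 to 0.9992), and AMACR, NTRK3, AKR1C2, IL1A and CTLA4 to LCN2 (0.9993 to 0.9988). None of these is on the list of granule genes, and GAGE genes have near-identical copies that share probes, so their readings are uncertain. The order carries little information, because 179, 196, 189 and 192 genes exceeded 0.99 for FDCSP, PLAC8, CAMP and LCN2.

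The rest of the neutrophil granule programme was for the most part not detected in either group. Of 36 listed granule genes, all on the array, 32 were not detected on any array, including MPO and ELANE of the azurophil granules. The 4 others had a median log2 difference of 0.22, against -0.03 over all tested genes. LYZ, the lysozyme gene, rose (log2 difference 1.67, SE 0.10, adjusted p 1.11e-10), with a mean log2 signal of 8.63 ± 0.16 in CD10-A375 cells and 6.96 ± 0.07 in mock-A375 cells (SD, n = 4 each). Its second probe was detected on 2 CD10-A375 arrays alone and did not pass (log2 difference 0.45, adjusted p 0.129). The other granule genes detected throughout did not pass either, namely QPCT, a glutaminyl cyclase gene (-0.01, adjusted p 0.934), and ANXA1, the annexin A1 gene (0.02, adjusted p 0.783). For comparison, 43% of tested genes passed, 20.3% as higher and 22.7% as lower.

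Among 25 genes of epithelial antimicrobial proteins, 24 were on the array and 7 were tested, of which 2 rose and 1 fell, with a median of -0.18. The share that passed among all tested genes was 43%. DMBT1, a secreted scavenger receptor gene of mucosal epithelium, reached the detection limit on 4 CD10-A375 and 0 mock-A375 arrays and was higher by at least 1.30-fold (adjusted p 6.11e-07). ANG, the angiogenin gene, was 0.59 higher on the log2 scale by its brighter probe (adjusted p 5.93e-04), and 0.13 by the other (adjusted p 0.543). ADM, which encodes adrenomedullin, fell by 1.35 on the log2 scale (SE 0.08, adjusted p 1.41e-10). The casein and salivary peptide genes next to FDCSP were below detection on every array for all 14 that had a probe, of 15 listed.

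**Figure D4:**
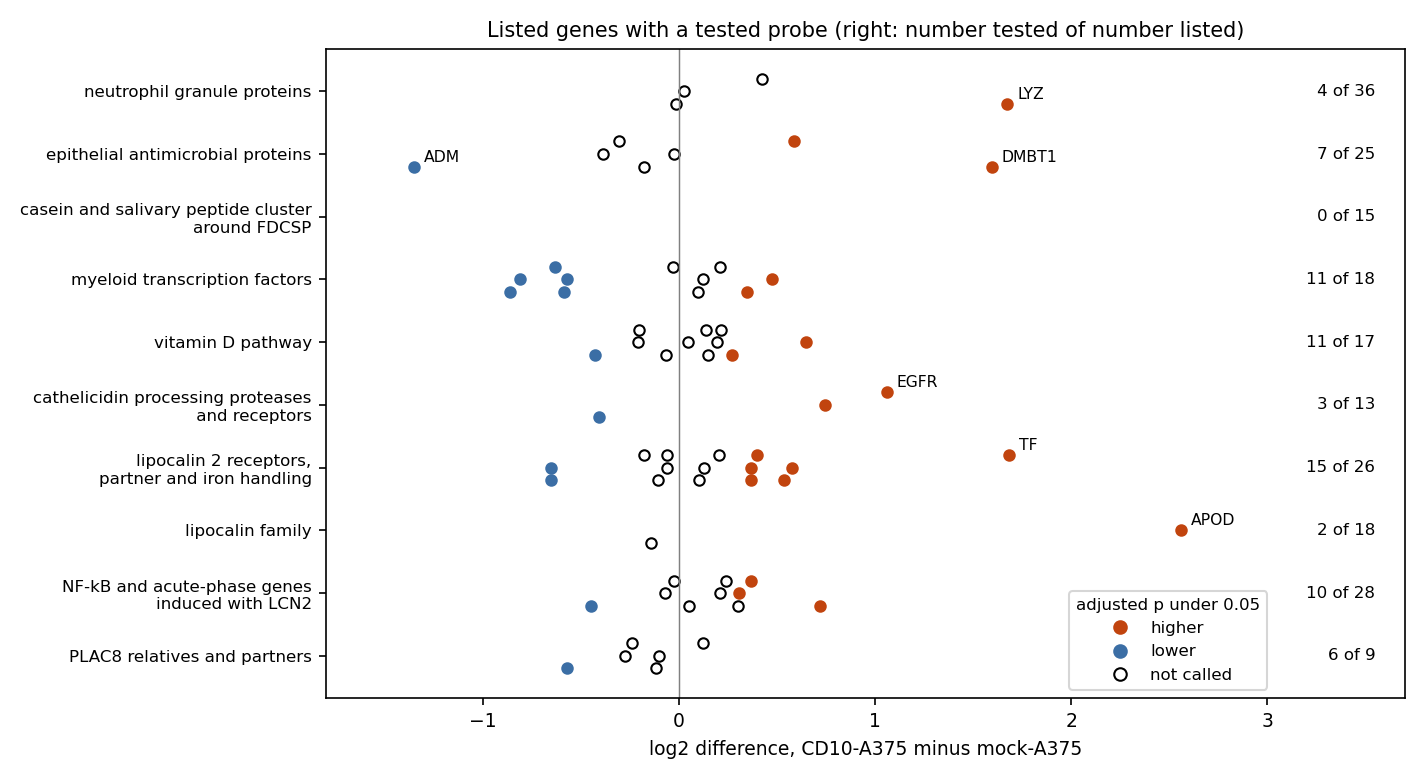
Log2 difference, CD10-A375 minus mock-A375 (horizontal axis), of each listed gene with a tested probe, by gene list (vertical axis). Filled points passed an adjusted p of 0.05 in limma, open points did not, and the numbers at the right are genes tested of genes listed. APOD (2.56, detected on 3 mock-A375 arrays) and LYZ (1.67) lie to the right and ADM (-1.35) to the left. The places of TF, DMBT1 and EGFR, not detected on any mock-A375 array, depend on how background is treated. So does that of GFI1B, not detected on any CD10-A375 array.

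The transcription factors that drive granule genes in myeloid cells were called in both directions. Of 18 listed, 17 were on the array and 11 were tested, 2 higher and 5 lower, with a median log2 difference of -0.03, where 43% of all tested genes passed. SPI1, which encodes PU.1, and CEBPE, the factor of the specific granules, were not detected on any array. CEBPA fell by 0.86 on the log2 scale (adjusted p 5.78e-04, detected on 2 CD10-A375 and 4 mock-A375 arrays) and GFI1B by 0.81 (adjusted p 0.00205, detected on 0 CD10-A375 and 3 mock-A375 arrays). The sizes of these 2 depend on the treatment of background. Over the alternatives they ran from -1.215 to -0.56 for CEBPA and from -2.15 to -0.45 for GFI1B. CEBPG fell by 0.64 (adjusted p 1.49e-06) and CEBPD by 0.59 (adjusted p 2.38e-05). GATA2 (0.47, adjusted p 0.00804) and RARA, the retinoic acid receptor alpha gene (0.35, adjusted p 0.00286), rose. Both lost the call in the SAM test (adjusted p 0.0705 for GATA2 and 0.16 for RARA), where 0 listed factors were higher and 4 were lower. CEBPB, which encodes another C/EBP factor, had a log2 difference of 0.12 (adjusted p 0.0763).

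For CAMP, the vitamin D route and the enzymes and receptors of its peptide were examined. Of 17 vitamin D genes, 15 were on the array and 11 tested, 2 higher and 1 lower, with a median log2 difference of 0.14. Among all tested genes 43% passed. VDR, the receptor itself, had a log2 signal of 6.46 ± 0.19 in CD10-A375 cells and 6.32 ± 0.21 in mock-A375 cells (SD, n = 4 each) and did not pass (0.15, adjusted p 0.433), and CYP24A1, its classical target, was not detected. The vitamin D hydroxylase genes CYP27A1 (0.65, adjusted p 5.25e-06) and CYP27B1 (0.27, adjusted p 0.00406) rose. RXRA, which encodes a partner of the receptor, fell by 0.43 (adjusted p 6.01e-04), a call lost in the SAM test (adjusted p 0.084). RXRB (0.19, adjusted p 0.0578) and RXRG (-0.07, adjusted p 0.532), brighter genes of the same family, did not pass. CYP27B1 lost its call without normalization between arrays (adjusted p 0.123) and in the SAM test (adjusted p 0.224).

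Of 13 listed proteases and receptors of cathelicidin, 12 were on the array and 3 were tested, 2 higher and 1 lower. Among all tested genes 43% passed. PRTN3, KLK5 and KLK7, whose proteases cut the precursor, and the receptor gene FPR2 were not detected. EGFR, which the peptide is known to transactivate in epithelial cells, was likewise detected on 4 CD10-A375 and 0 mock-A375 arrays, higher by at least 1.51-fold (adjusted p 1.56e-05). IGF1R, another receptor gene, rose by 0.74 on the log2 scale (adjusted p 3.81e-04). P2RX7, an ATP-gated channel gene, fell by 0.41 (adjusted p 0.0254). That call was lost in the SAM test (adjusted p 0.107), without CD10-A375 replicate 4 (adjusted p 0.0777) and without mock-A375 replicate 2 (0.0586) or 3 (0.0725).

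For LCN2, 24 of 26 listed genes of its receptors, its partner MMP9 and iron handling were on the array and 15 were tested. Of these 6 were higher and 2 lower, with a median log2 difference of 0.125, where 43% of all tested genes passed. The number called ran from 5 to 9 over the alternatives. MMP9, the gelatinase with which lipocalin 2 forms a complex, and the receptor genes LRP2 and MC4R were not detected. SLC22A17, the other lipocalin 2 receptor gene, named after its values were seen, was detected on 4 CD10-A375 and 1 mock-A375 arrays and was 0.53 higher on the log2 scale (adjusted p 0.00557). TF, the transferrin gene, was detected on 4 CD10-A375 and 0 mock-A375 arrays, higher by at least 2.46-fold (adjusted p 1.45e-08). ACO1, whose protein is also an iron-regulatory RNA-binding protein, rose by 0.58 (adjusted p 1.58e-06). TFRC, the transferrin receptor gene, fell by 0.65 (adjusted p 1.14e-08), as did FTL, the ferritin light chain gene, by 0.65 (adjusted p 4.4e-09).

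The lipocalin family was nearly absent besides LCN2, with 16 of 18 listed genes not detected and 2 tested. APOD, the apolipoprotein D gene, had a mean log2 signal of 8.52 ± 0.09 in CD10-A375 cells and 5.97 ± 0.40 in mock-A375 cells (SD, n = 4 each) and rose by 2.56 (SE 0.15, adjusted p 1.24e-10). It was detected on 4 CD10-A375 and 3 mock-A375 arrays, and its log2 difference ran from 2.05 to 2.92 over the alternatives. Of 28 NF-kB and acute-phase genes known to be induced alongside LCN2, 27 were on the array and 10 were tested. Of these 3 were higher and 1 lower, with a median log2 difference of 0.22, where 43% of all tested genes passed. SAA1, C3, CXCL2, IL6 and CSF3 were not detected on any array. SOD2, the mitochondrial superoxide dismutase gene, rose by 0.72 (adjusted p 5.36e-07). CXCL8, a neutrophil chemokine gene, rose by 0.36 (adjusted p 0.0036) and NFKBIA, which encodes an NF-kB inhibitor, by 0.31 (adjusted p 0.00202). These 2 lost the call in the SAM test (adjusted p 0.15 for CXCL8 and 0.19 for NFKBIA). NFKBIA also lost it without normalization between arrays (adjusted p 0.0658). LIF, a cytokine gene, was 0.45 lower on the log2 scale (adjusted p 0.0488), and that call was lost in most alternatives. NFKBIZ, named after its values were seen, whose protein is required for LCN2 induction in mouse cells, had a log2 difference of 0.05 (adjusted p 0.747).

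PLAC8 relatives and partners were listed as 9 genes, of which 6 were tested, 1 of them lower and none higher, with a median of -0.18. Among all tested genes 43% passed. PLSCR1, a phospholipid scramblase gene whose protein binds onzin in mouse cells, fell by 0.57 (adjusted p 0.00338), a call lost in the SAM test (adjusted p 0.0637). CNFN, which shares the PLAC8 domain, had a log2 difference of -0.12 (adjusted p 0.441). LAMP2, a lysosomal membrane protein gene, had a log2 difference of -0.10 by its brightest probe (adjusted p 0.348), and its 6 tested probes disagreed. ILMN_1673282 (0.21, adjusted p 0.0324) and ILMN_1752351 (0.22, adjusted p 0.0439) passed as higher and ILMN_1917290, detected on 0 CD10-A375 and 3 mock-A375 arrays, as lower (-0.57, adjusted p 0.0103).

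Markers of other cell types were measured beside the members. Of 14 pan-leukocyte and myeloid markers, 4 were tested (CD14, CD68, AIF1 and CORO1A) and none passed, and their summed average-normalized signal was 478 to 663 in CD10-A375 cells and 477 to 599 in mock-A375 cells. The defining markers PTPRC, ITGAM, CSF1R and CSF3R were not detected on any array. Of 9 follicular dendritic cell markers 2 were tested, MFGE8, a secreted glycoprotein gene (0.43 higher, adjusted p 3.39e-05), and SERPINE2 (0.02, adjusted p 0.794). Their summed signal was 25320 to 27420 in CD10-A375 cells and 22900 to 25420 in mock-A375 cells. SERPINE2 gave most of it, with mean log2 signals of 14.47 in CD10-A375 and 14.45 in mock-A375 cells, against 11.81 and 11.38 for MFGE8. CR2, CR1, FCER2 and CXCL13 were not detected. Of 12 keratinocyte markers 2 were tested, KRT10 (0.23 higher, adjusted p 0.0115) and DSC3 (0.22, adjusted p 0.227), summing to 2772 to 3254 in CD10-A375 cells and 2517 to 2826 in mock-A375 cells, and KRT5 and KRT14 were not detected. Of 10 fibroblast markers 3 were tested, 2 of them lower, summing to 107 to 132 in CD10-A375 cells and 181 to 214 in mock-A375 cells. The lower ones were near background, COL1A2 detected on 0 CD10-A375 and 1 mock-A375 arrays and LUM on 0 and 2. PDGFRB did not pass (-0.12, adjusted p 0.446). The melanoma label comes from the name of the line, A375. SOX10 and MITF, the lineage transcription factors, were detected on all arrays, and the pigment genes PMEL, MLANA, TYR and TYRP1 were not detected. The 8 tested of 15 lineage markers summed to 11040 to 12080 in CD10-A375 cells and 8484 to 9080 in mock-A375 cells. Of these, SOX10, S100A1, CSPG4 and PRAME were higher and AXL and NGFR lower, where 43% of all tested genes passed. NGFR was detected on 0 CD10-A375 and 3 mock-A375 arrays.

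The chromosomal neighbours of the members were then read, since the 4 genes lie on chromosomes 4, 4, 3 and 9. Of the 24 nearest tested protein-coding genes, 3 on each side of each member in the RefSeq order, 2 were higher, 8 were lower and 14 did not pass. Over all tested genes 20.3% were higher and 22.7% lower, 43% in either direction. The share called in either direction is near that background. Fewer neighbours were higher and more were lower than over all tested genes, which was not tested. Around PLAC8 all 6 log2 differences were negative and 4 passed. COPS4, a COP9 signalosome subunit gene directly next to PLAC8, fell by 0.73 (adjusted p 4.32e-07), LIN54, a DREAM complex gene, fell by 0.73 (adjusted p 8.64e-06) and COQ2, of ubiquinone synthesis, fell by 0.53 (adjusted p 3.35e-05). HELQ, a DNA helicase gene, was detected on no CD10-A375 array and all 4 mock-A375 arrays and was at least 1.86-fold lower (adjusted p 3.67e-05). HPSE, the heparanase gene, had a log2 difference of -0.50 (adjusted p 0.0561), which passed in 6 alternatives (adjusted p 0.0229 to 0.0478), and SCD5, a desaturase gene, -0.42 (adjusted p 0.0761). No CD10-A375 array detected HPSE or SCD5, against 3 and 1 mock-A375 arrays, so the size of their differences depends on the treatment of background.

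Around FDCSP the nearest tested genes stood 10 or more protein-coding genes away. Of its 6 neighbours UTP3, a ribosome biogenesis gene, was the only call (-0.32, adjusted p 0.0278). That call was lost in the SAM test (adjusted p 0.226) and with no intensity trend (0.0713). It was also lost without CD10-A375 replicate 1 (adjusted p 0.079) or 2 (0.0663) or mock-A375 replicate 3 (0.109). Directly next to CAMP, the cell cycle phosphatase gene CDC25A had a log2 difference of 0.00 by its brighter probe (adjusted p 0.967) and of 0.38 by the other (adjusted p 0.0385). ZNF589, a zinc finger gene, rose by 0.37 (adjusted p 0.0247), and its other probe gave 0.66 (adjusted p 4.96e-04). The first call was lost in the SAM test (adjusted p 0.158) and without replicate 4 of CD10-A375 (adjusted p 0.0859) or of mock-A375 (0.0896). MAP4, a microtubule-associated protein gene, had a log2 difference of 0.37 (adjusted p 0.0378). That call was lost in 9 of 18 alternatives, among them 5 of the 8 fits with 1 array left out. PLXNB1, a semaphorin receptor gene, fell by 0.41 (adjusted p 0.00888), a call lost in the SAM test (adjusted p 0.13). Next to LCN2, PTGES2, a prostaglandin E synthase gene, had -0.09 (adjusted p 0.343) and BBLN 0.11 (adjusted p 0.477), while SLC25A25, a mitochondrial carrier gene (-0.39, adjusted p 2.83e-04), and NAIF1, which encodes a nuclear protein (-0.33, adjusted p 0.00226), fell. The SAM test lost the calls of SLC25A25 (adjusted p 0.108) and NAIF1 (adjusted p 0.172).

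**Figure D5:**
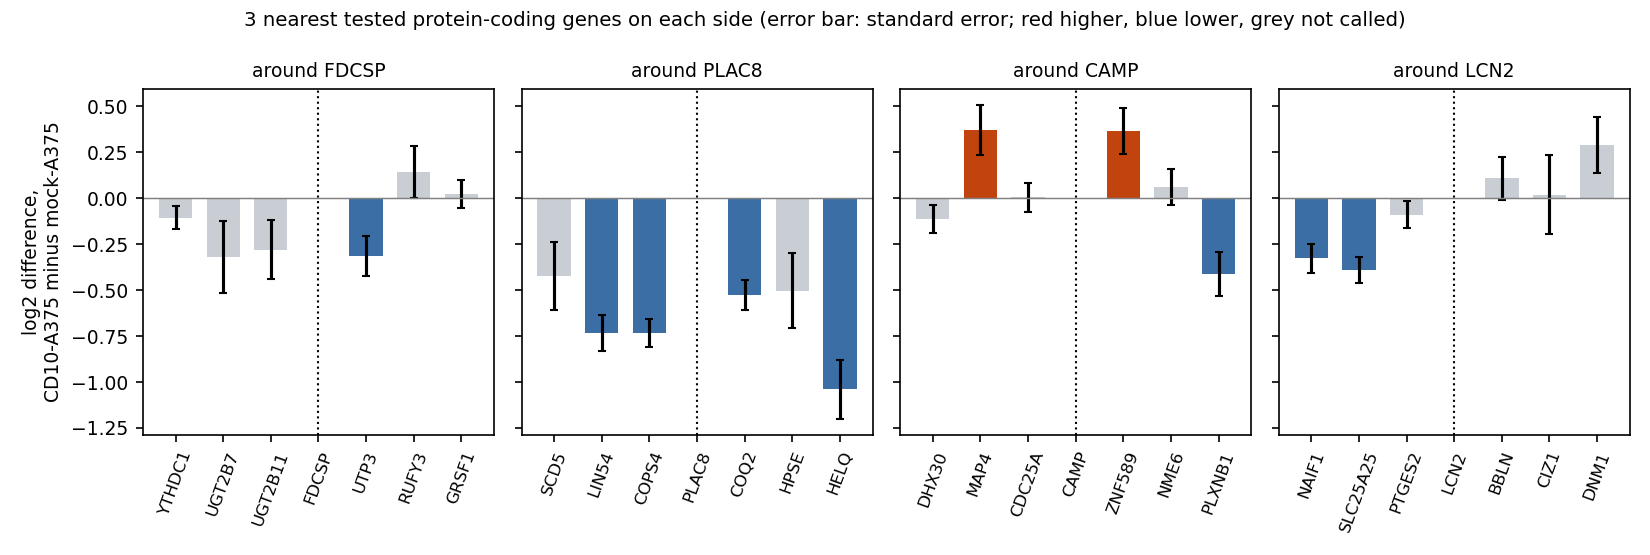
Log2 difference, CD10-A375 minus mock-A375 (vertical axis), of the 3 nearest tested protein-coding genes on each side of each member, in chromosomal order. Bars are the limma estimates with their standard errors, red where higher, blue where lower and grey where the adjusted p did not pass. The 6 bars around PLAC8 all point down. The lengths of the HELQ, HPSE, SCD5, UGT2B7 and CIZ1 bars depend on the treatment of background, since no CD10-A375 array detected these genes.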

How the data were processed

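RNA of 4 CD10-A375 and 4 mock-A375 samples was hybridized to Illumina HumanHT-12 v4 arrays. The authors deposited GenomeStudio intensity values (version 1 in the submitters' notes), background-subtracted and not normalized, with a detection p-value per probe, and a second set of intensity values after their average normalization, which was used for ratios and 1 alternative. Intensities were corrected with normexp from the detection p-values, quantile normalized and taken to log2 with an offset of 16 in limma 3.58.1 (R 4.3.3). Of 47322 probes, 27772 without a detection p of 0.01 or less on any array were left out. Groups were compared with a moderated linear model with an intensity trend and Benjamini-Hochberg adjustment at 0.05, first tested on simulated data. Of all probes, 30113 had 1 gene symbol, 8 several and 17201 none, and a gene is its brightest probe. Depth has no meaning for arrays, and their number, 4 per group, limits the precision. The members and gene lists were chosen with earlier results of these data known. Named were all members, per list up to 4 genes with the largest difference among those that passed (for lists with fewer than 2 such genes, any gene detected on all 4 arrays of a group), 3 tested neighbours on each side and the 5 most alike genes. Genes given only as not detected, the list genes CEBPB, GATA2, RARA, VDR, RXRB and RXRG and the marker genes were named after their values were seen. Alternatives were no filter, no further background correction, no normalization between arrays, an offset of 50, average-normalized values with a floor of 0.1, no intensity trend, the probe with the largest difference per gene, a SAM test, which the methods name, run here on the main log2 values with adjusted p-values and not with the methods' values or thresholds, detection on all 4 arrays of a group, a replicate block and leaving out each array. The replicate numbers did not pair the samples.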

Additional observations from a re-analysis of the deposited data

Results flagged for a closer look

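Of 120 groups of 4 arrays checked for 1 array far from the others (Dixon's test on log2 signals), 5 were past the critical value for groups of that size. Chance flags about 1 in 20. None belonged to FDCSP, PLAC8, CAMP or LCN2.

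DMBT1 had 5.89 in CD10-A375 replicate 4, against 6.16 to 6.18 in the other CD10-A375 replicates. NFKBIA had 10.26 in CD10-A375 replicate 1, against 10.45 to 10.47 in the others. TFRC had 13.11 in mock-A375 replicate 2, against 13.21 to 13.22 in the other mock-A375 replicates. UGT2B7, a neighbour of FDCSP, had 5.93 in mock-A375 replicate 1, against 5.29 to 5.40 in the others. UGT2B11, the next gene of that family, had 6.36 in mock-A375 replicate 2, against 6.03 to 6.08 in the others.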

How the results depend on the processing

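All 5 member probes kept a positive difference in all 65 combinations of probe and alternative, and 54 of them moved by less than the SD between replicates. The log2 difference ran from 5.12 to 5.92 for FDCSP, from 3.60 to 4.28 and from 3.71 to 4.63 for the PLAC8 probes, from 1.92 to 3.35 for LCN2 and from 3.07 to 12.07 for CAMP, lowest with the offset of 50 and highest with average-normalized values at a floor of 0.1. Without further background correction CAMP came to 4.84. Leaving out each array in turn gave 5.57 to 5.70 for FDCSP, 3.99 to 4.09 and 4.21 to 4.37 for PLAC8, 4.18 to 4.28 for CAMP and 2.61 to 2.68 for LCN2. Signal close to background limits CAMP and LCN2 in mock-A375 cells to bounds.

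Over all probes, 3386 were higher and 3776 lower, and leaving out 1 array gave 3023 to 3235 higher and 3370 to 3711 lower. The replicate numbers did not mark pairs (same-numbered arrays had correlations of -0.19 to 0.03 once group means were removed), and the replicate block gave 3152 probes higher and 3483 lower. The SAM test called 1496 probes higher and 1301 lower. It called 4 myeloid transcription factors in place of 7, 0 of them higher, and 1 vitamin D gene in place of 3. It also called 5 lipocalin 2 and iron genes in place of 8, 1 NF-kB gene in place of 4 and 0 PLAC8 relatives in place of 1. With no filter 3 granule genes were called in place of 1, 1 casein cluster gene in place of 0, 7 NF-kB genes in place of 4 and 2 PLAC8 relatives in place of 1, as with the probe of largest difference. Vitamin D genes called ran from 3 to 6 with 1 array left out, 6 without mock-A375 replicate 1. Of 982 combinations of named gene and alternative, 913 kept direction and side of the threshold, 61 lost the call, 8 gained it and 0 reversed. The cause was not tested. HPSE passed in 6 alternatives (adjusted p 0.0229 to 0.0478), the replicate block among them (0.0305). LIF had adjusted p-values of 0.0523 to 0.151 in the alternatives that lost it.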
